A study of Ovis aries with 36 samples.

Results

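Expression was described here for 3 of the 31136 loci counted in 9 skeletal muscles of 4 lambs. They are the loci at the positions that the study gives for SLC16A3 and PPP1R3D, which it links to lactate transport and to glycogen metabolism. The positions were matched to the listed spans of the loci on the Oar_v3.1 sheep assembly. ENSOARG00000016912 and ENSOARG00000016829 are both listed at chr11:49768832-49810034, a span of 41203 bases, and ENSOARG00000004792, the PPP1R3D locus, is listed at chr13:55922753-55926015, a span of 3263 bases. Because the listed span on chromosome 11 is the same for both loci, it does not say which of them is SLC16A3, and both are given by their identifiers. The study lists SLC16A3 as higher in SM (Semimembranosus) than in SS (Supraspinatus). The fold change of SM over SS found here is given for both loci below. Exon positions within the spans were not given in the sources used here.

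The animals were Poll Dorset cross-bred lambs 14 months of age, unrelated to each other, with live weights of 67 to 72 kg at slaughter. Each animal gave all 9 muscles, taken from the middle of the superficial belly directly after slaughter, so that every muscle has 4 biological replicates and every comparison between muscles is within animals. The muscles were Supraspinatus (SS), Psoas major (PM), Gluteobiceps (GB), Adductor (AD), Gluteus medius (GM), Rectus femoris (RF), Semimembranosus (SM), Longissimus lumborum (LL) and Semitendinosus (ST). Libraries held 3699148 to 6427422 counts, but 4 short unannotated loci took 65.7 to 78.3% of them, and 12461 loci, all 3 described here included, passed the filter on low counts.

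SLC16A3 encodes the monocarboxylate transporter MCT4, which carries lactate together with a proton out of cells and is typical of fast glycolytic fibres, where lactate is made quickly during contraction. PPP1R3D encodes one of the glycogen-targeting subunits of protein phosphatase 1. These subunits hold the phosphatase on the glycogen particle, where it removes phosphate from glycogen synthase and so favours the storage of the glucose that feeds glycolysis. Slow oxidative fibres rely more on mitochondrial respiration, and they are marked by their own forms of troponin, myosin light chain and the calcium pump of the sarcoplasmic reticulum.

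SS had the lowest level of both ENSOARG00000016912 and PPP1R3D in each of the 4 animals, and every SS sample lay below every sample of the 8 other muscles. Only 11 of the 12461 tested loci (0.0883%) had SS samples wholly below all others, and 55 (0.441%) were lowest in SS in each animal. ENSOARG00000016829, at the same listed position as ENSOARG00000016912, was lowest in SS in 1 animal, and its muscle means lay between 9.60 and 12.3 CPM (counts relative to a library size that TMM had corrected for composition). The study named these genes from its comparison of SM with SS, so levels in SM and SS are a description, no test was applied to them and nothing is read from these shares.

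ENSOARG00000016912 had 3.09, 4.36, 4.44 and 4.81 CPM in the 4 SS samples. The lowest sample of any other muscle was a GB sample with 5.77 CPM. In SM the 4 samples had 5.97, 11.4, 17.7 and 20.9 CPM. The SM samples were therefore spread widely, and the lowest, from animal 2, lay close to the SS samples although it did not overlap with them. AD gave 13.1, 14.7, 17.7 and 23.4 CPM and LL gave 9.12, 15.1, 16.5 and 18.7 CPM. PM gave 9.46, 10.6, 13.7 and 17.5 CPM, and GM gave 9.60, 10.7, 13.7 and 14.6 CPM. These 4 muscles overlapped with one another and with SM. The levels were 7.21, 8.84, 9.12 and 11.5 CPM in ST, 6.38, 6.85, 10.5 and 12.1 CPM in RF, and 5.77, 6.21, 7.82 and 13.8 CPM in GB, so ST, RF and GB also overlapped with one another.

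From the highest mean to the lowest, ENSOARG00000016912 therefore ran AD, LL, SM, PM, GM, ST, RF, GB and SS, from 17.2 ± 4.56 CPM in AD to 4.18 ± 0.747 CPM in SS (SD, n = 4). AD ranked first or second in every animal and SS ranked last. Of the 8 neighbouring pairs in this order, only GM above ST and GB above SS had a mean within-animal difference larger than its SD. These differences in log2 CPM were 0.39 ± 0.13 and 0.88 ± 0.54 (SD), each in the same direction in 4 of 4 animals.

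PPP1R3D had 1.46, 2.32, 2.67 and 2.98 CPM in the SS samples. RF came next with 3.01, 3.097, 4.15 and 5.26 CPM, so its lowest sample lay just above the highest SS sample. SM had 5.26, 6.96, 6.98 and 9.91 CPM. All SM samples were thus above all SS samples, with less spread than for ENSOARG00000016912. LL had 5.15, 7.16, 8.26 and 8.77 CPM, AD had 5.97, 6.58, 7.90 and 8.31 CPM, and PM had 4.56, 5.30, 6.40 and 8.73 CPM. GB had 5.08, 5.86, 6.73 and 7.18 CPM and ST had 4.96, 5.47, 5.68 and 6.67 CPM. The ranges of these 6 muscles overlapped with one another. GM had 4.35 and 4.48 CPM in animals 2 and 3, below every sample of those 6 muscles, and 5.37 CPM in animal 4, but it reached 11.1 CPM in animal 1, the highest PPP1R3D level of the 36 samples.

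The order of the PPP1R3D means was LL, SM, AD, GM, PM, GB, ST, RF and SS, from 7.33 ± 1.60 CPM in LL to 2.36 ± 0.659 CPM in SS (SD, n = 4). ST exceeded RF by 0.54 ± 0.30 on the log2 CPM scale in 4 of 4 animals, and this was the only neighbouring step larger than its SD. RF exceeded SS by 0.65 ± 0.67, in 4 of 4 animals but within 1 SD. The counts behind these values were small, with 10 to 15 PPP1R3D counts in each SS sample. In bulk muscle, a lower level cannot be divided into fewer cells of a type and less RNA per cell.

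ENSOARG00000016829 varied less. Its means ran from 9.60 ± 1.06 CPM in SS to 12.3 ± 0.744 CPM in AD, and no neighbouring pair of muscles in its order differed beyond its SD. Levels are compared here between muscles only and never between genes, because exon lengths were not used.

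**Figure D1:**
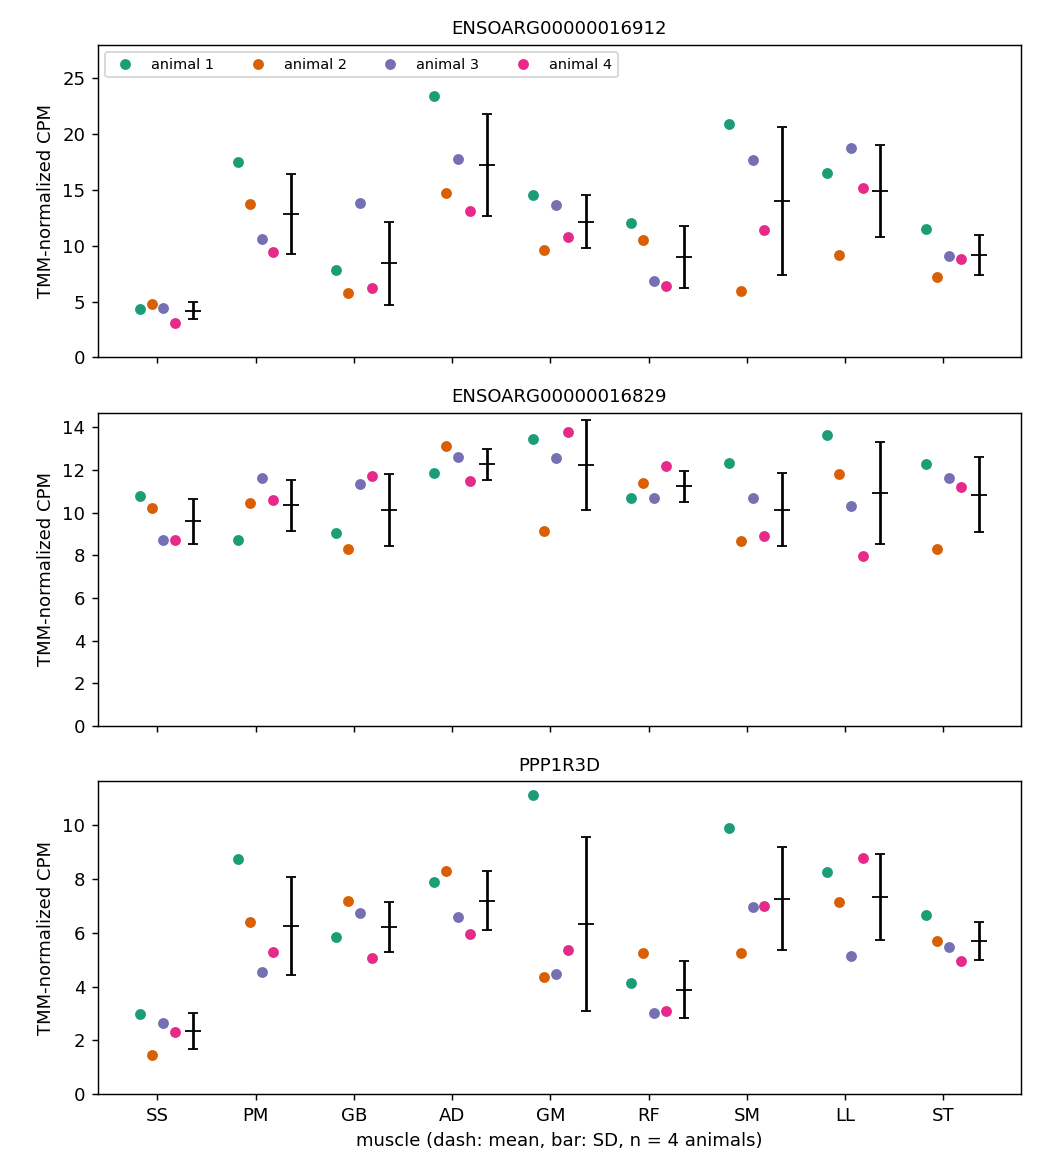
Expression of the 3 loci in each of 36 samples, in TMM-normalized CPM on linear axes that start at 0, with points for animals, a dash for the mean and a bar for the SD (n = 4). For ENSOARG00000016912 and PPP1R3D, the SS samples reach at most 4.81 and 2.98 CPM and lie below every other sample, whereas ENSOARG00000016829 shows no such gap.

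As a description of the contrast from which the genes came, the fitted log2FC of SM over SS was 1.62 for ENSOARG00000016912 (3.07-fold) and 1.61 for PPP1R3D (3.05-fold). Differences in log2 CPM between SM and SS of the same animal, with a prior count of 2 that compresses low values, averaged 1.54 ± 0.84 for ENSOARG00000016912 and 1.497 ± 0.17 for PPP1R3D (SD, n = 4). Both were positive in 4 of 4 animals. The fold change was thus alike for the 2 loci, whereas the animals ranged from 0.29 to 2.17 for the first and only from 1.28 to 1.63 for the second. ENSOARG00000016829 had a fitted log2FC of 0.05 and a within-animal mean of 0.07 ± 0.22, with 3 of 4 animals positive. Of the chromosome 11 loci, only ENSOARG00000016912 thus had a clear rise in SM over SS, the direction that the study lists for SLC16A3. The listed span still does not say which of them is the gene.

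The other 7 muscles were compared with the same 4 SS samples whose values entered the choice of the genes, so these differences are a description as well. The fitted log2FC of ENSOARG00000016912 over SS was 1.99 in AD, 1.79 in LL, 1.58 in PM and 1.501 in GM, and it was 1.09 in ST, 1.08 in RF and 0.94 in GB. That of PPP1R3D was 1.66 in LL, 1.64 in AD, 1.43 in GB, 1.41 in PM, 1.35 in GM, 1.30 in ST and 0.76 in RF. All 4 animals were above their own SS sample in each of these comparisons. AD was therefore about 4-fold above SS for ENSOARG00000016912 (3.97-fold), and RF was the muscle nearest to SS for PPP1R3D (1.69-fold). ENSOARG00000016829 differed from SS by 0.07 to 0.36 in these 7 muscles, and AD was the only muscle whose samples did not overlap with SS.

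**Figure D2:**
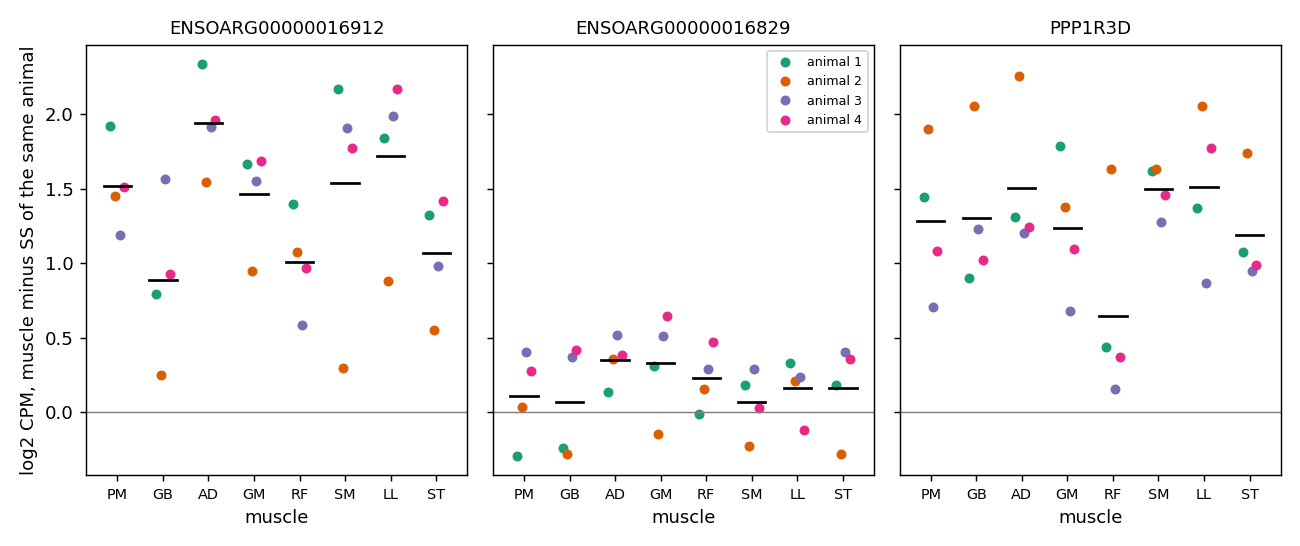
Difference in log2 CPM (prior count 2) between each of 8 muscles and SS of the same animal, with a point per animal and a line at the mean of 4 animals. All points lie above 0 for ENSOARG00000016912 and PPP1R3D, whereas those of ENSOARG00000016829 fall on both sides of 0 in 7 muscles, with AD the exception.

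The 7 muscles other than SM and SS were not used to choose the genes, and differences among them were tested. In a joint test with edgeR's quasi-likelihood test, 521 of 12461 loci (4.18%) had an FDR of at most 0.01. ENSOARG00000016912 was among them with F = 6.02 and an FDR of 0.00568. PPP1R3D was not, with F = 3.34 and an FDR of 0.0819 by the same quasi-likelihood test, and neither was ENSOARG00000016829, with an FDR of 0.673. The call for ENSOARG00000016912 was lost when animal 1, 3 or 4 or the animal term was left out, but not without animal 2. Its FDR rose to 0.0774, 0.0128 and 0.0961 by the same edgeR test without animals 1, 3 and 4, and to 0.122 without the animal term, and was 0.00175 without animal 2.

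Among the 21 pairs of these muscles, none passed an FDR of at most 0.01 with an absolute log2FC above 1 for any of the 3 loci by edgeR's quasi-likelihood test, against 0.554% of all locus-by-pair tests. DESeq2 and edgeR's likelihood ratio test each called 1 pair for ENSOARG00000016912 and none for the other loci. At an unadjusted p under 0.05 by edgeR's quasi-likelihood test there were 11 pairs for ENSOARG00000016912, 6 for PPP1R3D and 0 for ENSOARG00000016829. The share of all locus-by-pair tests at that limit was not computed and the 21 pairs share muscles, so nothing is read from these counts. At an FDR of at most 0.05 with no fold limit, which 1.79% of locus-by-pair tests met, ENSOARG00000016912 had 4 pairs and PPP1R3D had 2. For ENSOARG00000016912, AD was higher than GB (log2FC 1.05), RF (0.91) and ST (0.90), and LL was higher than GB, given as a log2FC of -0.85 for GB over LL. The FDR of these pairs was 0.0181, 0.0382, 0.0180 and 0.0469 by edgeR's quasi-likelihood test, and all 4 animals showed each direction. For PPP1R3D both pairs involved RF, which was lower than LL (log2FC of LL over RF 0.90, FDR 0.0235 by edgeR's quasi-likelihood test) and lower than AD (log2FC of AD over RF 0.88, FDR 0.0492 by the same test). Samples did not overlap in 2 of the 21 pairs for ENSOARG00000016912, AD with RF and AD with ST, and in 1 for PPP1R3D, AD with RF, against 5.42% of all locus-by-pair comparisons.

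Muscle accounted for 66.7% of the variance of ENSOARG00000016912 in log2 CPM over the 36 samples and for 70.1% of that of PPP1R3D, against a median of 28.7% over the tested loci and 27.1% for ENSOARG00000016829. These shares include SM and SS and are therefore a description. Animals accounted for 14.4, 10.6 and 8.71% of the variance of ENSOARG00000016912, PPP1R3D and ENSOARG00000016829, with a median of 15.4% over the tested loci. The mean of ENSOARG00000016912 over the 9 muscles was 14.3 CPM in animal 1, 9.05 CPM in animal 2, 12.5 CPM in animal 3 and 9.37 CPM in animal 4. For PPP1R3D these means were 7.29, 5.67, 5.07 and 5.32 CPM, so animal 1 was highest for both loci.

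The ratio of the counts at the 2 chromosome 11 loci needs no library size, since both are counted in the same library, but it is not per length and serves only to compare muscles. In SS there were 19, 33, 25 and 16 counts of ENSOARG00000016912 in animals 1 to 4, against 47, 70, 49 and 45 counts of ENSOARG00000016829. The ratio was thus 0.404, 0.471, 0.510 and 0.356 in SS, and no sample of another muscle was below 0.522. The SS ratios were therefore the lowest, but the gap from the highest SS ratio to the lowest of another muscle, in an RF sample, was small. SS values entered the choice of the genes, so this is a description. The mean log2 ratio was highest in AD (0.46 ± 0.38), LL (0.42 ± 0.61), SM (0.33 ± 0.60) and PM (0.27 ± 0.55), near 0 in GM (-0.01 ± 0.23), and below 0 in ST (-0.25 ± 0.12), GB (-0.34 ± 0.51), RF (-0.38 ± 0.50) and SS (-1.21 ± 0.23; SD, n = 4). Among the 7 muscles other than SM and SS, a permutation test of the spread of the muscle means in either direction, exchanging muscles within animals (100000 resamples, 28 samples) gave p = 0.0297, a test chosen after these values had been seen. In sheep RefSeq annotation of another assembly, ARS-UI_Ramb_v3.0, SLC16A3 overlaps CSNK1D, a ubiquitous casein kinase, and PPP1R3D lies within FAM217B. The strand setting of the counting was not given in the sources used here, so reads of overlapping genes cannot be told apart and the values of all 3 loci are uncertain to that extent.

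**Figure D3:**
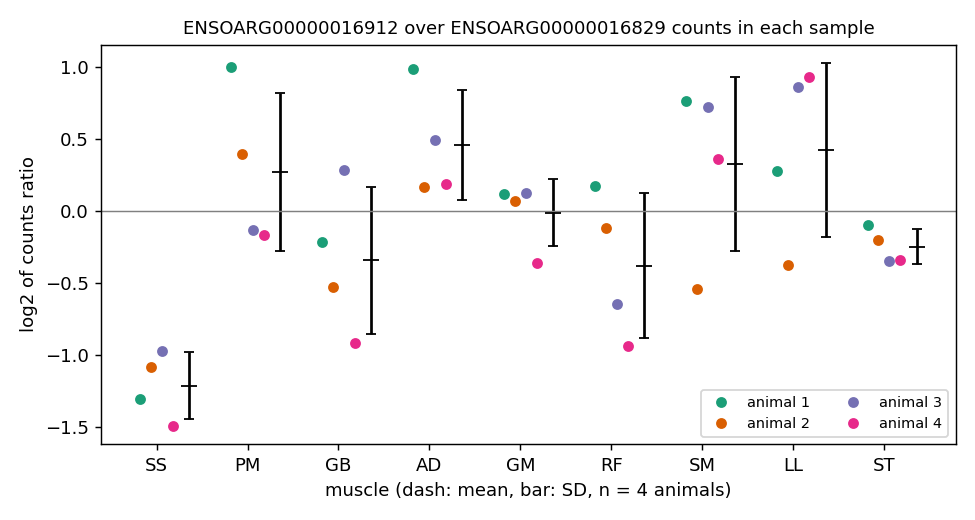
The log2 ratio of ENSOARG00000016912 counts to ENSOARG00000016829 counts in each sample, with points for animals, a dash for the mean and a bar for the SD (n = 4). The 4 SS samples have the lowest ratios, 0.356 to 0.510 on the linear scale, while all AD samples lie above 0 and all ST samples below 0.

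ENSOARG00000016912 and PPP1R3D had similar patterns over muscles. Over the 9 muscle means of log2 CPM, Pearson's r was 0.89 and Spearman's rho 0.82, and r was 0.83 without SS and GB, the muscles farthest from the median of ENSOARG00000016912. Over the 36 samples with each animal's mean removed r was 0.77, and over the 28 samples of the 7 muscles without SM and SS it was 0.57. These values are a description, since both genes came from the same contrast and the samples share libraries. ENSOARG00000016829 gave r = 0.62 with ENSOARG00000016912 and 0.38 with PPP1R3D over the 9 muscle means.

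Slow-fibre genes did not order the muscles in the same way. Of 12 slow-fibre genes listed, 9 could be paired with a single locus, and the study had chosen these genes on the same samples, so their direction is not independent evidence. All 9 stand in the study's list of the genes most different between ST and SS. Their count and median in ST were therefore fixed by that choice, and the other muscles were compared with the same SS samples. All 9 were lower in ST than in SS by edgeR's quasi-likelihood test under the same thresholds as the pairs above (background 1.52% of loci lower in ST). Their median log2FC was -3.24, against -0.0092 over all tested loci. The number lower than in SS was 8 in LL (background 1.16%), 7 in SM (2.42%), 4 in RF (0.136%), 3 in AD (0.345%), 3 in GM (0.169%), 0 in GB (0.337%) and 0 in PM (0.385%). In GB and PM, 5 and 2 of the genes were lower at an unadjusted p under 0.05 by the same edgeR test, and the likelihood ratio test called 1 and 0. The share of all loci was not computed at that unadjusted limit and is not given for the likelihood ratio test, so nothing is read from these counts. The median log2FC of the list was -0.53 in GB and 0.15 in PM, against -0.0053 and -0.0175 over all loci. The 4 most abundant of them were ATP2A2, the slow calcium pump, TNNC1 and TNNT1, the slow troponins C and T, and TPM3, a slow tropomyosin.

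PM and ST are examples. In PM, ATP2A2 was at 423 ± 86.0 CPM and TNNT1 at 256 ± 20.9 CPM, against the 406 ± 65.3 CPM and 225 ± 54.7 CPM of SS (SD, n = 4). None of the 9 genes was called lower in PM than in SS, and MYL3, a slow myosin light chain, was the only one called higher (log2FC 1.78, FDR 0.000275 by edgeR's quasi-likelihood test, background 0.522% of loci higher in PM). ENSOARG00000016912 was 3.00-fold and PPP1R3D 2.65-fold higher in PM than in SS. In ST, ATP2A2 fell to 56.0 ± 10.4 CPM and TNNT1 to 23.2 ± 6.96 CPM, the lowest of the 9 muscles. ST was 2.13-fold above SS for ENSOARG00000016912 and 2.46-fold for PPP1R3D, with means below those of AD, LL, SM, PM and GM for both. For PPP1R3D, the within-animal difference from ST was within its SD for GM, PM and LL, and beyond it for AD and SM. GM exceeded ST there by 0.05 ± 0.49 log2 CPM, in 2 of 4 animals. For ENSOARG00000016912, the difference was within its SD for SM and beyond it for AD, LL, PM and GM. Over the 9 muscle means, the mean of the 9 slow-fibre genes in log2 CPM gave r = -0.21 with ENSOARG00000016912 and -0.28 with PPP1R3D, and r = 0.21 and 0.14 over the 8 muscles without SS. These values are a description. The slow-fibre genes and both loci were chosen on these samples, from the contrasts of ST and of SM with SS.

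**Figure D4:**
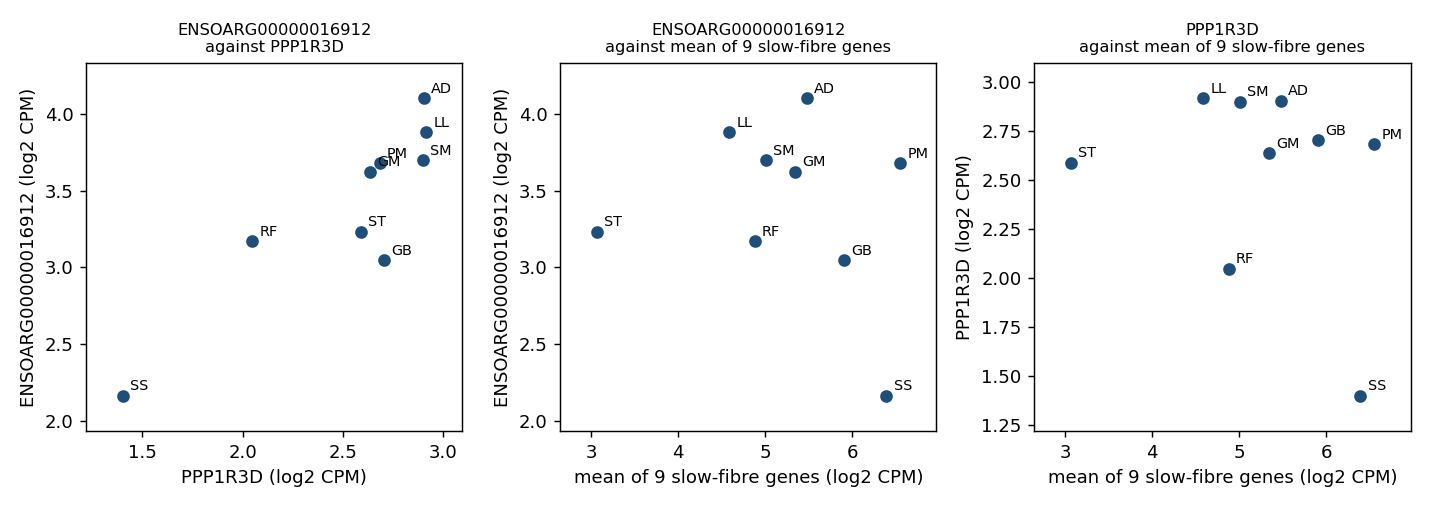
Muscle means of log2 CPM (n = 4 animals each, 1 point per muscle), with ENSOARG00000016912 against PPP1R3D on the left and each of them against the mean of 9 slow-fibre genes in the middle and on the right. SS is lowest for both loci, and PM lies beside SS on the slow-fibre axis but well above it for both loci.

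Other genes of lactate transport, glycogen storage and glycolysis, and markers of hypoxia, of endothelium, fat, connective tissue and immune cells, were not analysed here, since 0 of their symbols could be paired with a locus. Of the 13 fast-fibre genes listed, PVALB alone was paired, and its values are not given as it does not stand for the list. Of the skeletal muscle markers only TNNT1 was paired, and it was present in every muscle.

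The loci most like each of the 3 by Pearson's r over the 36 samples, with animal means removed, were sought among 9290 tested loci with an Ensembl identifier. The samples include SM and SS, whose contrast gave the genes, so these likenesses are a description. No value without SM and SS was computed. PPP1R3D was most like the locus at the position of CHI3L1, which joins 2 Ensembl genes (r = 0.84), and HOXD8, a homeobox transcription factor (r = 0.84). ENSOARG00000016912 and PPP1R3D shared 2 of their 5 most similar loci, ENSOARG00000009826 (r = 0.80 and 0.79) and ENSOARG00000005506 (r = 0.83 and 0.77). There were 349 loci with r above 0.5 to ENSOARG00000016912, 202 to PPP1R3D and 69 to ENSOARG00000016829, whose most similar locus reached r = 0.74. The most opposite pattern to PPP1R3D was that of KCNMA1, the large-conductance calcium-activated potassium channel (r = -0.77), which was named after its value had been seen. CHI3L1, HOXD8 and KCNMA1 stand with PPP1R3D in the study's list of the genes most different between SM and SS.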

How the data were processed

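RNA from 9 muscles of each of 4 lambs was sequenced with paired-end reads of 100 bases. Per the submitters' processing notes and the study's methods, the authors mapped the reads with TopHat2 2.0.13 on Oar_v3.1, assembled loci with Cufflinks 2.2.1 and counted reads with HTSeq. The deposited values are whole-number counts without normalization. The files list 31530 entries for 31136 loci, and each locus was used once.

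Samples were grouped by the muscle and animal in the labels. Loci were filtered with filterByExpr by muscle (12461 kept), normalized by TMM, and fitted with muscle and animal to all 36 samples in edgeR 4.0.16 (R 4.3.3), with the quasi-likelihood test and Benjamini-Hochberg adjustment over all tested loci. The thresholds were an FDR of at most 0.01 and, for pairs, an absolute log2FC above 1. Animal numbers pair the samples, as they mark the same animal. Deviations from the muscle mean correlated at 0.236 on average within animals and at -0.0777 between animals. A total of 3 counts equals 0.366 to 1.03 CPM, for counting error only. In all 54 pairs of animals within a muscle, counts differed by more than sampling noise.

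The members, lists and tests were chosen with earlier results of these data known. The named genes were the members, the most abundant genes of each pairable list and the loci most similar to each member, of which not all are given. Slow-fibre symbols were paired with loci through the study's coordinates, which also paired 1 fast-fibre gene (PVALB) and 1 skeletal muscle marker (TNNT1). The other lists had no paired symbol and were left out. The fit was tested on simulated data with larger fold changes than those of the tested pairs and with no animal effect. It therefore does not show how the fit handles differences of the size reported here. Alternatives were the likelihood ratio test, DESeq2 1.42.0, RLE size factors, removal of the abundant loci, other count filters, no animal term, only the samples compared, an FDR of 0.05 and each animal left out.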

Additional observations from a re-analysis of the deposited data

Results flagged for a closer look

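PPP1R3D in GM of animal 1, at 11.1 CPM, lay far from the other 3 GM samples, which had 4.35, 4.48 and 5.37 CPM. Its gap to the nearest of them exceeded Dixon's 95% limit, as a share of the group's range. This was 1 of 27 groups examined, and chance alone sets apart about 1 in 20 groups. The library had 39 PPP1R3D counts, against 29, 36 and 44 in the others, while its effective library size after TMM was 3499068, against 6668996 to 8198629. Its other levels did not stand apart, with 14.6 CPM of ENSOARG00000016912 and 13.4 CPM of ENSOARG00000016829. The part of library size in this value was not tested.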

How the results depend on the processing

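The fold changes of SM over SS were compared under RLE size factors, removal of the abundant loci, each animal left out and the within-animal mean. They moved by less than 1 SD of the within-animal differences under these, and the other settings are not given for them. With each animal left out, the log2FC was 1.41 to 2.05 for ENSOARG00000016912, 1.57 to 1.73 for PPP1R3D and -0.0028 to 0.18 for ENSOARG00000016829. In the joint test of 7 muscles, ENSOARG00000016912 was no longer called without the animal block (FDR 0.122, edgeR's quasi-likelihood test) and had an FDR of 0.00175 to 0.0961 with each animal left out. It stayed at an FDR under 0.01 with the other 7 settings. PPP1R3D was not called at 0.01 under any setting, with FDR 0.0410 by the likelihood ratio test, 0.0458 with at least 10 counts in every sample, 0.302 without the block, and 0.0566 to 0.425 with an animal left out. Of the 21 pairs, ENSOARG00000016912 had 1 called with DESeq2, the likelihood ratio test and no filter, 4 at an FDR of 0.05, and 0 to 1 with an animal left out (1 without animal 2). PPP1R3D had 2 at an FDR of 0.05 and 0 to 1 with an animal left out (1 without animal 2). Slow-fibre genes lower than in SS numbered 0 in AD, 0 in GM, 2 in RF, 2 in SM and 7 in LL without the animal block, and 1 in GB by the likelihood ratio test. With an animal left out they numbered 0 to 2 in AD (1, 0 and 1 without animals 2, 3 and 4), 1 to 3 in GM (1 without animal 4), 4 to 8 in LL (4 without animal 3), 1 to 5 in RF (2 and 1 without animals 2 and 3), and 3 to 7 in SM (3 without animal 2 or 3). Without the block, the numbers of called pairs and of slow-fibre genes lower in GB, PM and ST were the same. The cause of these changes was not tested. Each locus had 10 to 113 counts per sample, and no limit of detection was computed.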
